A study of Mus musculus with 8 samples.

Results

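The genes described here encode the proteins of the cytosolic ribosome, 54 of the 19937 genes that the arrays measured with a probe set of 1 gene symbol. They were picked by a rule on names: symbols of the form Rpl or Rps followed by a number (with an a, an x or a final 1 allowed), the stalk genes Rplp0, Rplp1 and Rplp2, and Rpsa, with pseudogenes left out. The set itself was chosen with earlier results of these data known. The large subunit gave 33 members and the small subunit 21. The RefSeq gene table holds 77 genes under the same rule, 46 large and 31 small. Of the 23 that were not measured by this rule, 16, such as Rpl3, Rpl11 and Rpl13a, lay on probe sets shared with another symbol and 7, such as Rps27a, had no listed probe set. Where a gene had several probe sets, the brightest over all arrays stood for it. All 54 members passed the filter on low signal, which kept 14953 genes.

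RNA came from whole mouse lung. Mice were anaesthetised with chloral hydrate (500 mg/kg) and received mepenzolate, a muscarinic receptor blocker, dissolved in phosphate-buffered saline through the trachea, or vehicle, and lungs were taken 7 h or 25 h later. The 4 groups were mepenzolate at 25 h, vehicle at 25 h, mepenzolate at 7 h and vehicle at 7 h, with 2 arrays each. Strain, sex, age and mepenzolate dose were not given in the sources used here. Whether replicate arrays came from different animals is not stated, so the p-values reflect only the spread between arrays, which may be technical. Defining markers of the lung were bright on these arrays, with mean log2 values of 13.52 for Sftpc, the surfactant protein of alveolar type 2 cells, 13.30 for Scgb1a1, the secretoglobin of club cells, 12.42 for Ager of alveolar type 1 cells and 12.39 for Cdh5 of endothelium. Replicate arrays correlated over all probe sets at 0.988 to 0.993, the same range as arrays of different groups.

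A ribosome joins a small subunit, which holds the mRNA and reads its codons, to a large subunit, which forms the peptide bond. Each protein is needed in about equal number, and their mRNAs share a run of pyrimidines at the very start (the 5′ terminal oligopyrimidine, or TOP, motif) through which mTORC1 signalling and the protein Larp1 control translation together. In tissue, ribosomal protein mRNA is abundant and is richest in growing cells and in lymphocytes. In whole lung RNA, more cells of a type and more RNA per cell cannot be told apart.

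The start regions of some members that lead or trail the comparison at 25 h are shown because the TOP run is the feature by which these genes are known. They run from 40 bases before the RefSeq start (GRCm38.p6) to 20 bases from it. Capitals mark a C followed by C or T bases, at least 6 long in all, that begins within 15 bases of that start on the sense strand.
Rps13, chr7:116334171-116334230, minus strand: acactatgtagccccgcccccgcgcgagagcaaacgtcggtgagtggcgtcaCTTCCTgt
Rpl38, chr11:114668540-114668599, plus strand: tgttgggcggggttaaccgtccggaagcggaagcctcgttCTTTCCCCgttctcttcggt
Rpl5, chr5:107900488-107900547, plus strand: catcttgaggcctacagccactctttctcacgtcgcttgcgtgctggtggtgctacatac
Rps9, chr7:3704001-3704060, plus strand: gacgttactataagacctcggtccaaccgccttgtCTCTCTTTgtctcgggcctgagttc
Rps7, chr12:28635934-28635993, minus strand: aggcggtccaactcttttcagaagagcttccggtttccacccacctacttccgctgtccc
Rps18, chr17:33955646-33955705, minus strand: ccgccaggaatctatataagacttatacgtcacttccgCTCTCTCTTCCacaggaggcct
Rpl13, chr8:123102310-123102369, plus strand: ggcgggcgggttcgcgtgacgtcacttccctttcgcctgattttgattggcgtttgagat
Rps2, chr17:24720023-24720082, plus strand: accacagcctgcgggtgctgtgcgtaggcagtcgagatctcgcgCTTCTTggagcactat
Of the 54 members, 43 had a RefSeq promoter entry. Of these, 21 (48.8%) held such a run at any of their listed starts, against 27.6% of all 27025 genes with an entry. With the first listed start only, the shares were 44.2% and 24.5%. The share was 11 of 25 for the large subunit (44%) and 10 of 18 for the small (55.6%). The letters CCGGAAG, on either strand of the 300 bases around a start, were in 17 members (39.5%) and in 9.93% of all genes with an entry. GTGACGT was in 6 members (14%) against 4.32%, and TATAA in 12 (27.9%) against 28%, both on either strand. The members were also split by the pyrimidine run. The median log2 difference between mepenzolate and vehicle at 25 h was 0.099 over the 21 with it and 0.11 over the 22 without. The split depends on the window, so it does not separate genes with a TOP motif from genes without one. The run of Rps13 begins only at base 13 from the start. Rpl13 and Rpl5, counted as without, hold pyrimidine runs that begin shortly before the window. Rps13, with one of the shortest runs shown, had the highest 25 h difference, and Rps18, with the longest, the lowest. For Rps18 this held on its brightest probe set only, as 6 of its 7 lay above 0. Whether the run goes with the difference was not tested.

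At 25 h most ribosomal protein genes read slightly higher with mepenzolate than with vehicle, in both subunits alike, and none passed the test. Of the 54 members, 0 had an adjusted p under 0.05 in limma's fit, where 0 of all genes tested (0%) did so. The smallest adjusted p was 0.979. At an unadjusted p under 0.05 there were 7 members higher, 4 large and 3 small, and 0 lower, against 230 genes (1.54%) higher and 369 (2.47%) lower in all. The log2 difference was above 0 for 48 members, 30 of 33 large and 18 of 21 small, while 41.3% of all genes lay above 0. The median difference was 0.14 over the large subunit, 0.11 over the small and -0.023 over all genes tested. In 28 members, 16 large and 12 small, both mepenzolate arrays lay above both vehicle arrays (14.2% of all genes), and in 1, Rps18, both lay below (22.4%).

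**Figure D1:**
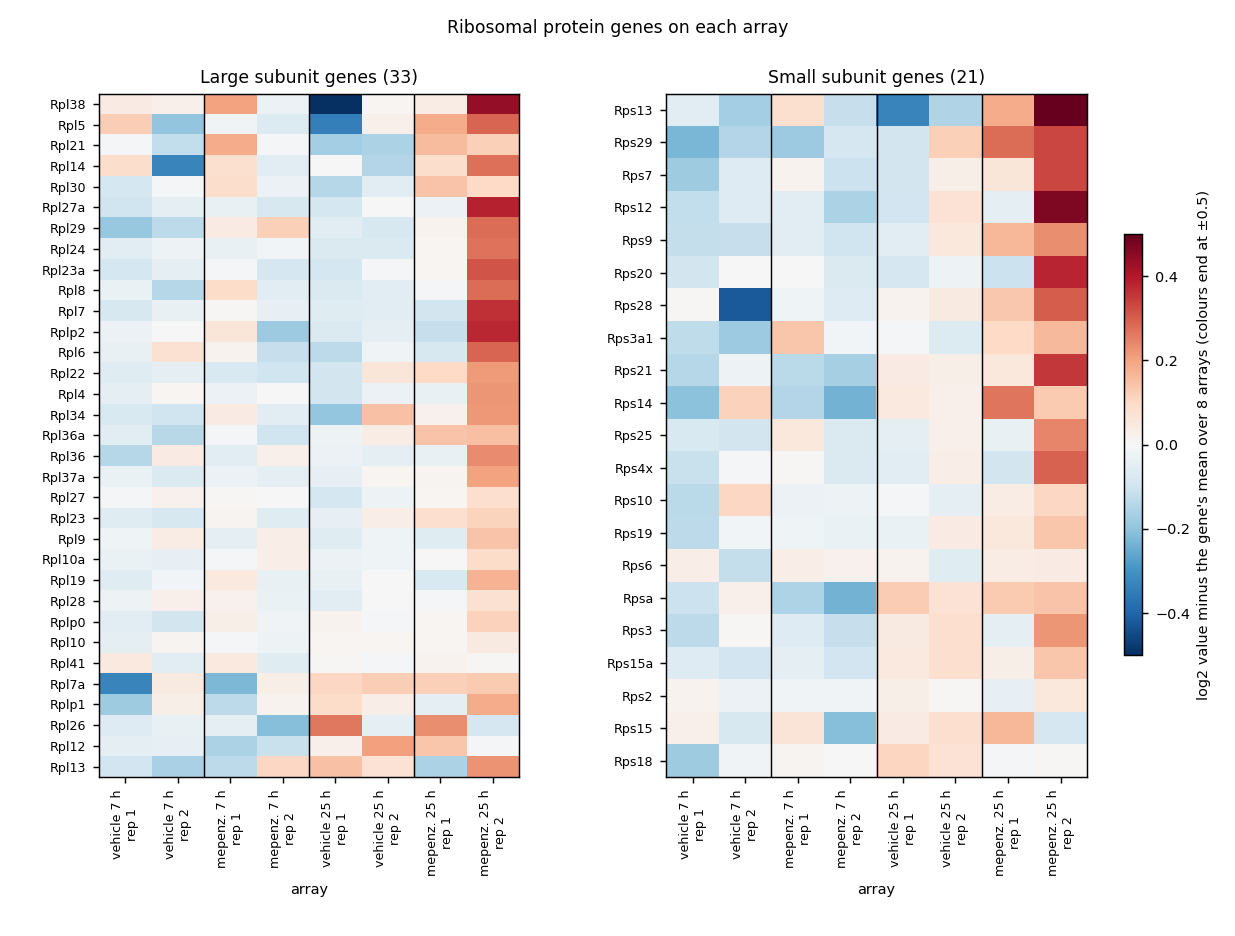
Log2 value of each of the 54 genes on each of the 8 arrays, minus the gene's mean over the arrays (colour scale in log2 units), with large subunit genes in one panel, small subunit genes in the other and genes ordered by their difference at 25 h. The second mepenzolate array at 25 h stands apart as the column where 45 of the 54 genes had their highest value.

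Rps13, a small subunit protein of the platform side, led the comparison. Its log2 values were 9.39 and 9.77 in mepenzolate lungs at 25 h and 8.88 and 9.06 in vehicle lungs. They were 9.29 and 9.09 in mepenzolate lungs at 7 h and 9.15 and 9.04 in vehicle lungs. Both mepenzolate arrays at 25 h lay above all 6 others. The difference at 25 h was 0.61 ± 0.14 (moderated SE, as throughout), with an adjusted p of 0.979 by limma. Rps29, a small zinc-binding protein of the same subunit, read 11.17 and 11.23 with mepenzolate and 10.80 and 11.01 with vehicle at 25 h. The values of 7 h were 10.71 and 10.81 with mepenzolate and 10.66 and 10.74 with vehicle. The treated arrays at 25 h were again the highest pair, and the difference there was 0.29 ± 0.09.

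Among large subunit genes, Rpl5, which carries the 5S rRNA into the ribosome and can bind the p53 regulator Mdm2, read 12.02 and 12.12 with mepenzolate at 25 h and 11.49 and 11.86 with vehicle. Earlier, at 7 h, it read 11.82 and 11.77 with mepenzolate and 11.96 and 11.64 with vehicle. The treated arrays at 25 h were the highest, and the lowest was the first vehicle array of that time. The difference was 0.39 ± 0.14, and 0.21 without that array. Rpl38, a protein known for its role in translating Hox mRNAs during development, showed the same array more strongly. Its values at 25 h were 11.02 and 11.42 with mepenzolate and 10.25 and 10.99 with vehicle, and at 7 h 11.19 and 10.95 with mepenzolate and 11.03 and 11.01 with vehicle. The difference was 0.60 ± 0.23 with all arrays, 0.23 with the first vehicle array left out, 0.97 with the second left out, and 0.40 when the second mepenzolate array was omitted.

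Rpl21 and Rpl30 differed from the other leading genes in not having their highest value on the second mepenzolate array of 25 h. Rpl21 read 10.73 and 10.69 with mepenzolate and 10.40 and 10.41 with vehicle at 25 h. The 7 h arrays gave 10.75 and 10.56 with mepenzolate and 10.56 and 10.45 with vehicle. The vehicle arrays of 25 h were its lowest, and the difference was 0.30 ± 0.09. Rpl30 read 7.64 and 7.59 with mepenzolate and 7.35 and 7.44 with vehicle at 25 h, a difference of 0.22 ± 0.08. Its groups did not overlap at that time. With any 1 array of 25 h left out, Rpl21 stayed between 0.28 and 0.32 and Rpl30 between 0.18 and 0.27. For Rpl21 this describes its brightest probe set only. Of its 8 probe sets at or above the filter level, 6 were higher at 25 h, and the next brightest differed by -0.11. Rps9, a small subunit protein of the mRNA entry channel, was the seventh at an unadjusted p under 0.05, with values of 11.64 and 11.70 against 11.41 and 11.52 and a difference of 0.20 ± 0.08.

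**Figure D2:**
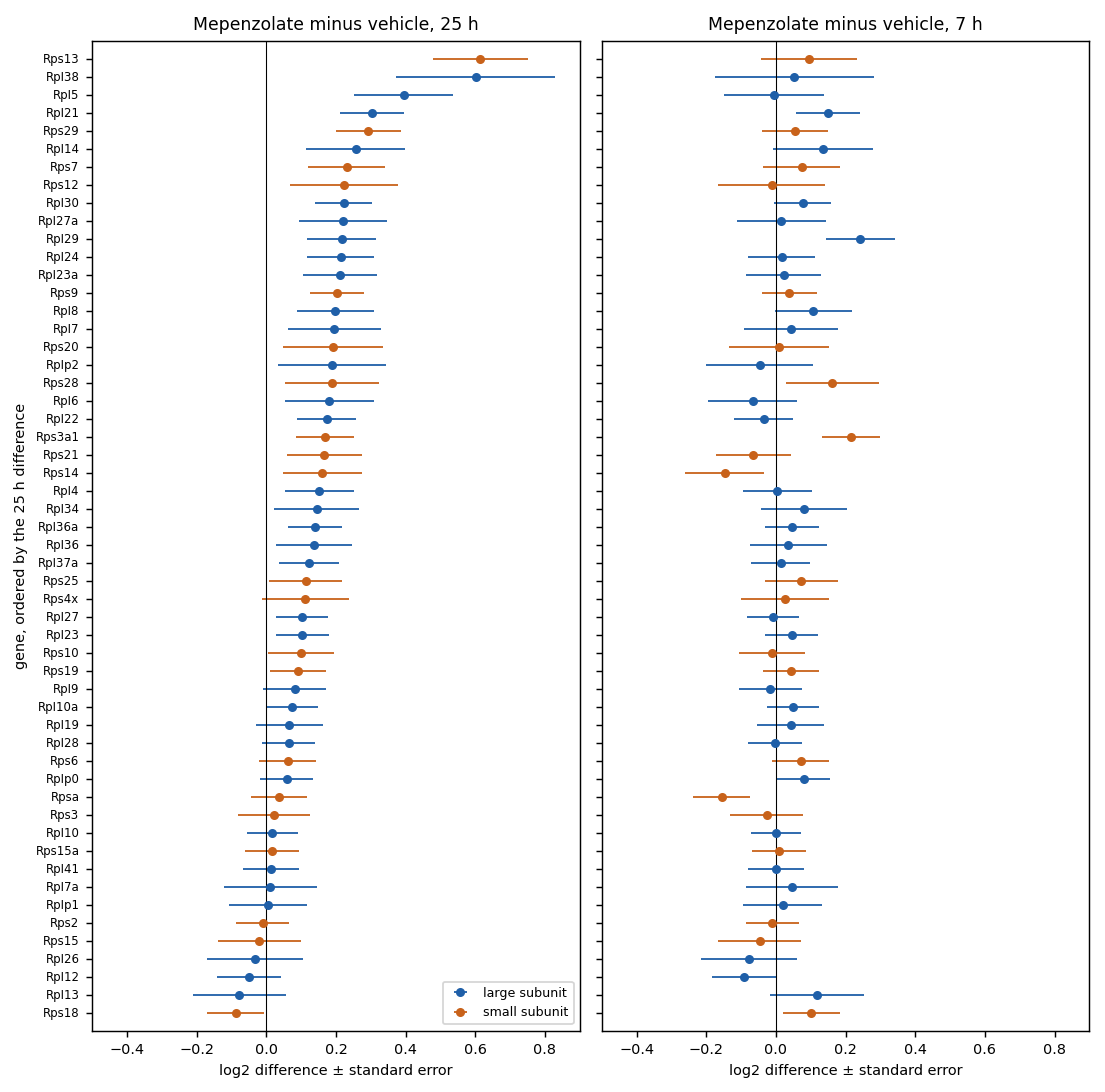
Log2 difference between mepenzolate and vehicle for each of the 54 genes at 25 h and at 7 h, as points with moderated standard errors, coloured by subunit. At 25 h 48 of the points lie above 0, from -0.09 (Rps18) to 0.61 (Rps13), and at 7 h 36 do.

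At the other end were 6 members with a difference under 0. Rps18, a small subunit head protein, read 12.33 and 12.34 with mepenzolate and 12.44 and 12.41 with vehicle at 25 h, and 12.35 and 12.33 with mepenzolate and 12.16 and 12.32 with vehicle at 7 h. Its groups did not overlap at either time, and in opposite directions, with differences of -0.09 ± 0.08 at 25 h and 0.10 ± 0.08 at 7 h. Rpl22 (0.17 and -0.03), an RNA-binding protein needed for T cell development, and Rpsa (0.04 and -0.16), the laminin receptor precursor, did not overlap in the reverse order. Such opposite separation occurred in 3 of the 54 members and in 3.52% of all genes tested. Some of the gaps were small. The nearest arrays of Rpsa at 25 h were 11.331 with mepenzolate and 11.328 with vehicle. Those of Rps18 at 7 h were 12.333 and 12.320. None of the 3 passed the test of the difference between times, at adjusted p of 1.00 by limma. The other members under 0 at 25 h were Rpl13 (-0.08 ± 0.13), Rpl12 (-0.05 ± 0.09), Rpl26 (-0.03 ± 0.14), Rps15 (-0.02 ± 0.12) and Rps2 (-0.01 ± 0.08), each less than its error.

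Of the genes of the ribosomal stalk, which recruits the elongation factors, Rplp0 differed by 0.06 ± 0.08 and Rplp1 by 0.01 ± 0.11 at 25 h, less than the median member, and Rplp2 by 0.19 ± 0.15. Rplp0 read 12.30 and 12.40 with mepenzolate and 12.31 and 12.28 with vehicle, so its groups overlapped. Rpl10, which is placed last in subunit assembly, was the steadiest member between replicates, with a pooled SD of 0.026. It ranged from 11.84 to 11.93 over the 8 arrays, with a difference of 0.02 ± 0.07. Rps6, the target of S6 kinase, read 13.41 and 13.41 with mepenzolate and 13.39 and 13.31 with vehicle (0.06 ± 0.08). Rps3, at the mRNA entry, differed by 0.02 ± 0.10, the X-linked Rps4x by 0.11 ± 0.13 and Rps19, a gene of inherited red cell aplasia, by 0.09 ± 0.08. The members with the largest pooled SD between replicates were Rpl38 (0.31), Rplp2 (0.20), Rps12 (0.20), Rps20 (0.18), Rpl5 (0.18), Rpl14 (0.18), Rpl26 (0.17) and Rps13 (0.17). Their 25 h differences ran from -0.03 for Rpl26 to 0.61 for Rps13.

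The replicate arrays of mepenzolate at 25 h did not share the higher reading equally. The second had the highest value of all 8 arrays for 45 of 54 members (83.3%), 28 large and 17 small, where 10.4% of all genes tested and 11.9% of 1276 other genes with a mean log2 value of at least 10 did so. The exceptions were Rpl12, Rpl21, Rpl26, Rpl30, Rpl41, Rps10, Rps14, Rps15 and Rps18. As deviations from each gene's mean, the median over the members was 0.21 on that array and 0.018 on its replicate. The other 6 lay between -0.062 and 0.0073. The bright other genes had a median of -0.038 there. Rps20 read 11.69 and 12.18 on the 2 arrays, Rps12 10.17 and 10.68, and Rplp2 7.37 and 7.86. Between the replicates 47 members were higher on the second, by a median of 0.14, and the median gap in the other 3 groups was -0.051 to 0.037.

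Leaving out that array left 38 of 54 members above 0 at 25 h, with medians of 0.027 over the large subunit and 0.048 over the small, while 48.4% of all genes lay above 0. Leaving out its replicate instead gave 50 members and medians of 0.21 and 0.20. Without the first vehicle array 48 members lay above 0 and without the second 49, with medians of 0.11 to 0.17 over the subunits. With 1 array left in a group, that array is assumed to vary like the others. Rps13 stood at 0.43 without the second mepenzolate array, Rps29 at 0.26 and Rpl29 at 0.09, from 0.22.

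**Figure D3:**
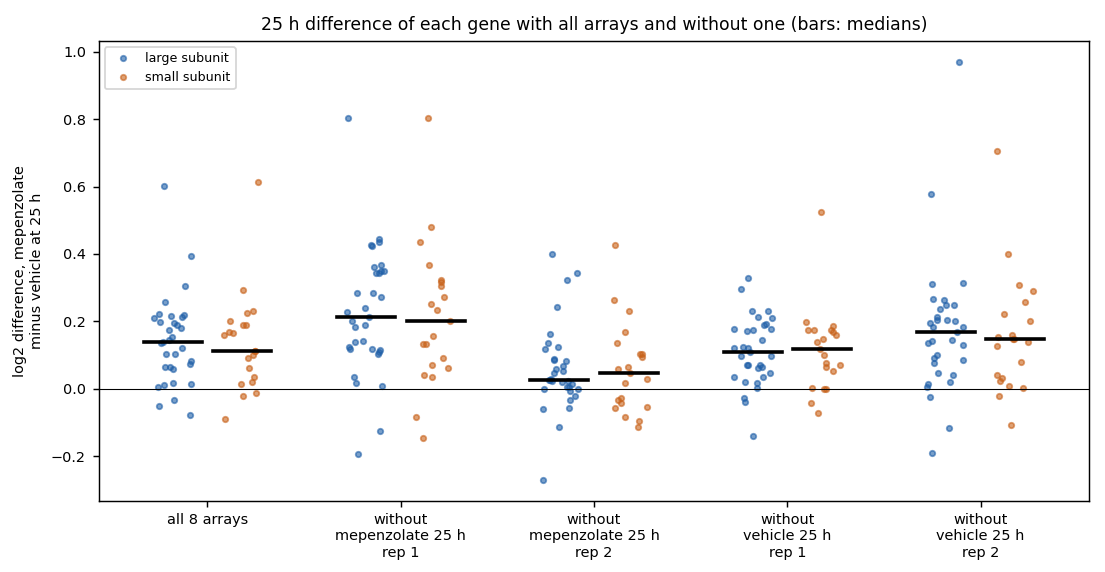
Log2 difference between mepenzolate and vehicle at 25 h for each gene with all arrays and without each array of 25 h in turn. Without the second mepenzolate array the points move toward 0, to subunit medians of 0.027 (large) and 0.048 (small).

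At 7 h the genes lay nearer to 0. The difference between mepenzolate and vehicle was above 0 for 36 members, 23 large and 13 small, against 43.6% of all genes. The median was 0.022 over the large subunit and 0.026 over the small (all genes -0.013). No gene of the array was called by limma (0%), and 2 members were higher at an unadjusted p under 0.05 (111 genes in all, 0.742%) and 0 lower (1.65% of all genes). They were Rps3a1, of the mRNA exit side of the small subunit, and Rpl29, also known as a heparin-binding protein. Rps3a1 read 8.30 and 8.15 with mepenzolate and 8.04 and 7.98 with vehicle at 7 h, a difference of 0.22 ± 0.08. Rpl29 read 7.96 and 8.03 against 7.73 and 7.78, a difference of 0.24 ± 0.10. Both were also separated at 25 h, Rps3a1 at 8.26 and 8.33 against 8.16 and 8.10 and Rpl29 at 7.93 and 8.20 against 7.86 and 7.83. The groups did not overlap in 8 members higher and 3 lower (8.26% and 15.5% of all genes). The lowest were Rpsa (-0.16 ± 0.08) and Rps14 (-0.15 ± 0.11), a gene lost in the human 5q deletion syndrome.

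Averaged over both times, 48 members stood above 0, 31 large and 17 small (40% of all genes). Again 0 members and 0 genes (0%) were called by limma, and 6 members were higher at an unadjusted p under 0.05, with 175 genes in all (1.17%), and 0 lower (2.59% of all genes). They were Rps13 (0.35 ± 0.10), Rpl21 (0.23 ± 0.06), Rpl29 (0.23 ± 0.07), Rps3a1 (0.19 ± 0.06), Rps29 (0.17 ± 0.07) and Rpl30 (0.15 ± 0.06). In Rpl10a and Rpl29 all 4 mepenzolate arrays lay above all 4 vehicle arrays, as in 0.602% of all genes, and in 0 members did they all lie below (1.81%). The difference between the 25 h and the 7 h effect was above 0 for 45 members (48.3% of all genes), with medians of 0.098 for the large subunit and 0.086 for the small. In that comparison too 0 members and 0 genes (0%) were called. The largest differences were those of Rpl38 (0.55 ± 0.32), Rps13 (0.52 ± 0.19) and Rpl5 (0.40 ± 0.20). Rps13 was the 1 member with an unadjusted p under 0.05, against 212 genes (1.42%) higher in all, and 0 members were lower (1.26% of all genes).

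The subunits stood further apart between times than between treatments. In vehicle lungs, 25 h stood above 7 h by a median of 0.088 over the small subunit and 0.020 over the large (all genes -0.00023). In mepenzolate lungs the medians were 0.17 and 0.12 (all genes -0.0050). In the vehicle comparison 18 of 21 small and 22 of 33 large genes were above 0 (49.9% of all genes), and in the mepenzolate comparison 20 and 33 were (47.9%). No member was called by limma in either, where 13 genes (0.0869%) and 4 genes (0.0268%) of the array were. The vehicle groups did not overlap in 20 members higher at 25 h, 9 large and 11 small (20.9% of all genes), and in 5 lower, all large (22.2%). In mepenzolate lungs this held for 28 higher, 14 of each subunit (12.5%), and 0 lower (15.2%).

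The large subunit median minus the small subunit median was also taken on each array, over deviations from the gene means. This is a different measure from the medians of differences given above, and its sizes need not match theirs. At 7 h it was 0.018 and 0.049 with mepenzolate and 0.065 and 0.025 with vehicle. At 25 h it was -0.040 and -0.023 with mepenzolate and -0.048 and -0.041 with vehicle. All 4 arrays of 7 h were above 0 and all 4 of 25 h below it, in both treatments, with a spread between replicates of 0.019 (pooled SD). The signs were the same with means in place of medians (0.016 to 0.056 at 7 h, -0.047 to -0.026 at 25 h) and over all probe sets of the members (0.017 to 0.051, and -0.052 to -0.017). Those last 2 versions use the same genes and were added after seeing the data. In the medians of fitted differences, the large minus small contrast between treatments was 0.027 at 25 h and -0.0037 at 7 h. That was smaller than the same contrast between times, -0.068 in vehicle lungs and -0.050 in mepenzolate lungs. Without the second mepenzolate array of 25 h the contrast between treatments at that time was -0.021. The second mepenzolate array of 25 h, where both subunits were highest (0.20 large, 0.22 small), did not stand apart in the contrast taken by array.

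**Figure D4:**
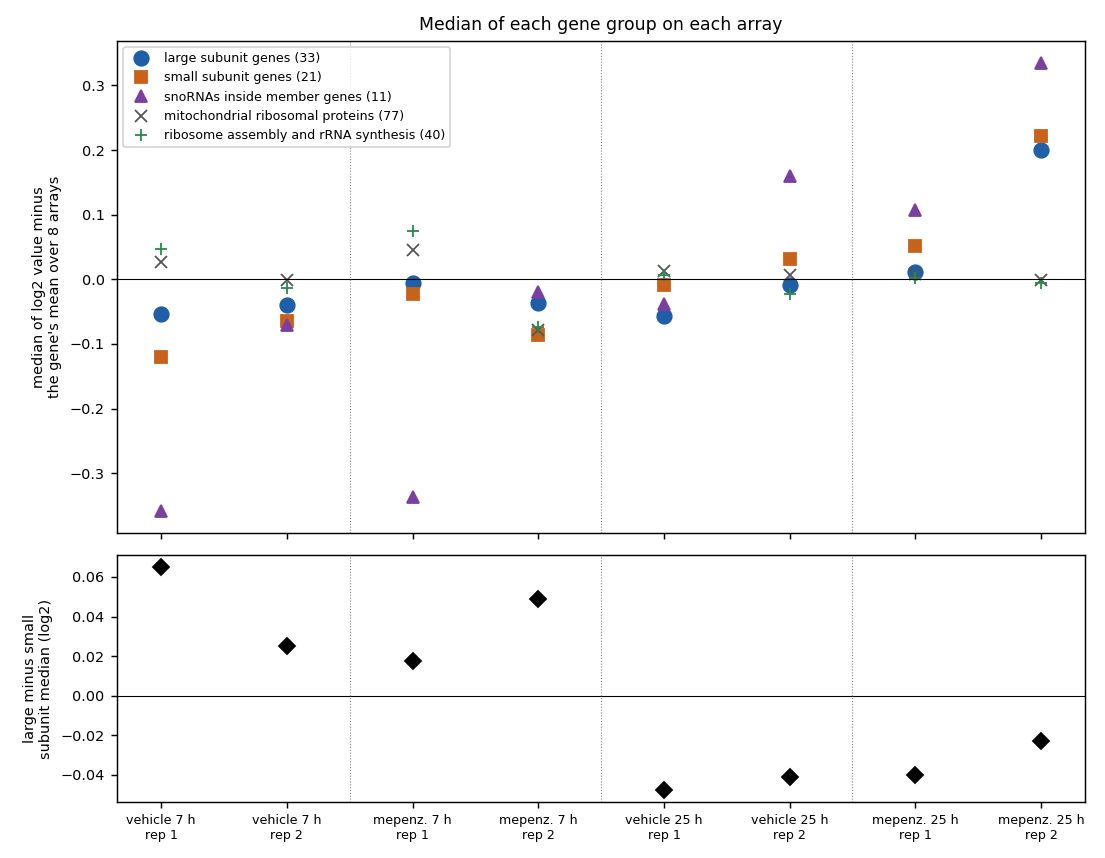
Median deviation from each gene's 8-array mean (log2) on every array for large subunit genes, small subunit genes, small nucleolar RNAs inside members, mitochondrial ribosomal protein genes and ribosome assembly genes, with the large minus small subunit contrast in the lower panel. The contrast is 0.018 to 0.065 on the 4 arrays of 7 h and -0.048 to -0.023 on the 4 arrays of 25 h.

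In 6 members all 4 arrays of 25 h lay above all 4 of 7 h, whatever the treatment: the large subunit genes Rpl12 and Rpl7a and the small subunit genes Rps15a, Rps21, Rps28 and Rpsa. This was 11.1% of members and 2.55% of all genes. None showed the reverse, as 620 genes of the array did. Rpsa read 11.33 and 11.34 with mepenzolate and 11.33 and 11.27 with vehicle at 25 h. Its values at 7 h were 11.04 and 10.96 with mepenzolate and 11.09 and 11.22 with vehicle. Rps15a read 7.70 and 7.82 with mepenzolate and 7.73 and 7.76 with vehicle at 25 h, and 7.63 and 7.58 with mepenzolate and 7.61 and 7.58 with vehicle at 7 h. Rpl7a read 6.89 and 6.90 with mepenzolate and 6.87 and 6.89 with vehicle at 25 h. It read 6.54 and 6.80 with mepenzolate and 6.44 and 6.81 with vehicle at 7 h. Its replicates at 7 h lay further apart than the 2 times.

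Between 25 h and 7 h in mepenzolate lungs 8 members were higher at an unadjusted p under 0.05, 2 large and 6 small, against 490 genes (3.28%) in all, and 0 were lower (3.09% of all genes). Rps29 differed by 0.44 ± 0.09 (limma adjusted p = 0.314), Rpsa by 0.33 ± 0.08 (0.389), Rps9 by 0.28 ± 0.08 (0.482) and Rps14 by 0.39 ± 0.11 (0.514), with limma's adjusted p in brackets. Rps21 at 0.35 ± 0.11, Rps13 at 0.39, Rpl22 at 0.24 ± 0.08 and Rpl36a at 0.20 complete the group. Rps14 read 11.58 and 11.45 at 25 h and 11.17 and 11.08 at 7 h with mepenzolate, and 11.37 and 11.34 at 25 h and 11.11 and 11.43 at 7 h with vehicle. Without the second mepenzolate array of 25 h, 36 members in place of 53 lay above 0 and 6 were at an unadjusted p under 0.05. In vehicle lungs 0 members were at that level, while 405 genes (2.71%) were higher and 454 (3.04%) lower. The largest differences there were those of Rpl7a (0.26 ± 0.13), Rpl13 (0.24 ± 0.13) and Rps28 (0.24 ± 0.13), followed by Rps29 (0.20 ± 0.09) and Rps18 (0.18 ± 0.08), whose errors were smaller. Rpl38 was the lowest at -0.39 ± 0.23. Both time comparisons share no array with each other, and the difference between them is the difference between the treatment effects given above.

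A member's probe sets often differed. The 54 members had 185 in all: 17 members had 1 and 37 had several, 10 at most. At or above the filter level were 174, and 138 of them were higher with mepenzolate at 25 h (42.6% of all 16277 probe sets with 1 symbol at that level). Among probe sets at that level, in 17 of the 37 members all were higher, in 20 they lay on both sides of 0 and in 0 all were lower. The 120 that were not the brightest had a median difference of 0.10, and 62 of these (51.7%) had their highest value on the second mepenzolate array. The 3 probe sets of Rps13 differed by 0.61, 0.19 and 0.037 and the 3 of Rpl5 by 0.39, 0.39 and 0.21. Those of Rpl38 gave 0.60 for the brightest and 0.056, -0.12 and -0.060 for the rest, so its lead rested on 1 probe set. Rps18 was below 0 on its brightest and above 0 on the other 6, up to 0.30. Rpl13 ran from -0.22 to 0.69. Ribosomal protein genes have many processed copies in the genome, and which copy a probe set reads cannot be told from these values.

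**Figure D5:**
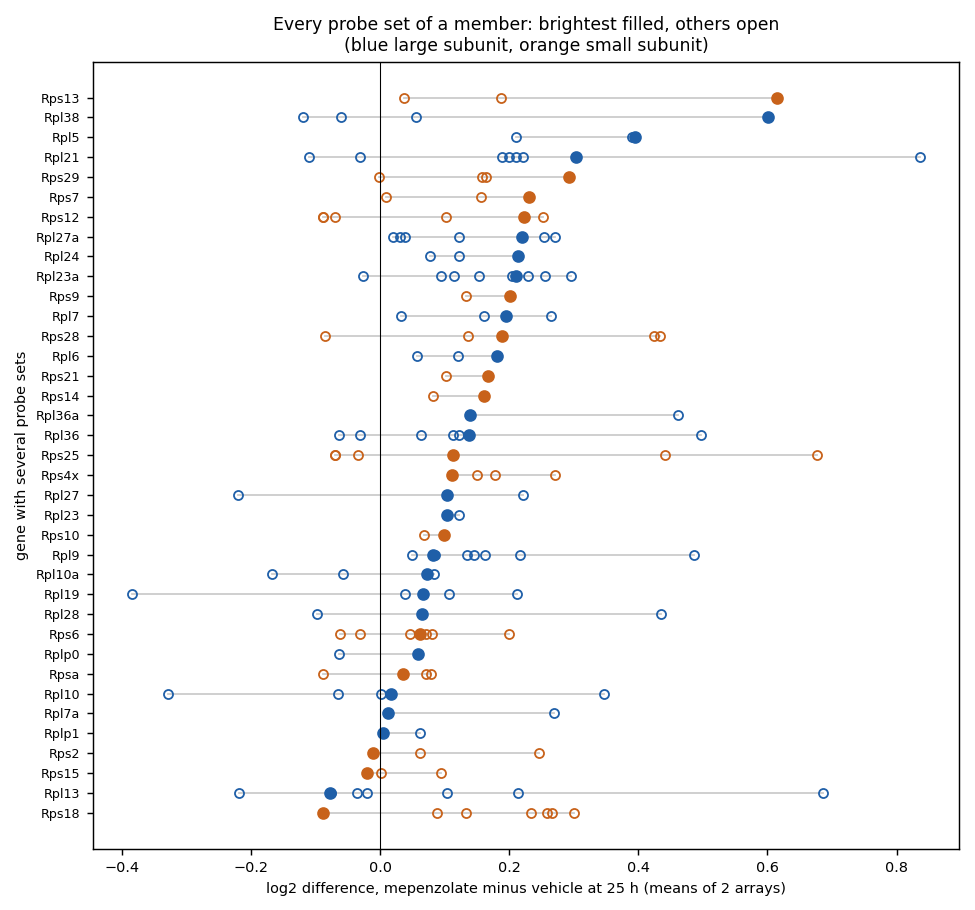
Log2 difference between mepenzolate and vehicle at 25 h for the probe sets at or above the filter level of the 37 genes with several, the brightest filled. Probe sets of 20 genes fall on both sides of 0, those of 17 genes above 0 only.

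Other genes of the translation machinery gave smaller medians at 25 h, and none of those lists held a called gene in any of the 6 comparisons. Elongation factors and other TOP mRNAs had 10 of 13 genes above 0 with a median of 0.017. Eif3e, a subunit of initiation factor 3, led them at 0.31 ± 0.12. The elongation factors stood at -0.021 for Eef1a1, -0.030 for Eef2, 0.077 for Eef1b2 and 0.0038 for Eef1d, and Tpt1, another classic TOP mRNA, at 0.018. Initiation factors had 15 of 24 above 0 (median 0.046), led by the helicase Eif4a2 (0.21 ± 0.10), with Eif6, which keeps free large subunits apart from small ones, lowest at -0.19 ± 0.08. Genes of ribosome assembly and rRNA synthesis had 21 of 40 above 0 (median 0.0018). Among them were the nucleolar proteins Npm1 (0.23 ± 0.12) and Ncl (0.20 ± 0.09) above 0, and Rrs1 (-0.22 ± 0.14) and Bop1 (-0.17 ± 0.08) below. Mitochondrial ribosomal proteins had 37 of 77 above 0 (median -0.0088), with Mrpl47 at 0.36 ± 0.11 and Mrps26 at -0.21 ± 0.08 largest relative to their errors. Of mTORC1 and other translation regulators 6 of 15 lay above 0 (median -0.058), with Rptor, the scaffold of mTORC1, at -0.19 ± 0.09. Of fusion proteins and paralogs outside the rule 4 of 5 did (median 0.057), Rps27l highest at 0.14 ± 0.09 and the fusion gene Fau at 0.03 ± 0.09.

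Small nucleolar RNAs, which guide the chemical marking of rRNA, are cut from introns of many ribosomal protein genes. RefSeq places 21 inside 15 of the members, and 11 were tested. Their median deviations were 0.11 and 0.33 on the mepenzolate arrays of 25 h and -0.34 and -0.020 on those of 7 h. On the vehicle arrays they were -0.037 and 0.16 at 25 h and -0.36 and -0.071 at 7 h. As for the host genes, the second mepenzolate array of 25 h was the highest. Of the 11, 9 were above 0 between mepenzolate and vehicle at 25 h, and 0 were called. Snord73b, inside Rps3a1, read 9.85 and 10.25 with mepenzolate and 8.85 and 9.32 with vehicle at 25 h. It read 8.85 and 9.37 with mepenzolate and 8.73 and 9.22 with vehicle at 7 h. Its difference at 25 h was 0.97 ± 0.25. Small nucleolar RNAs that lie elsewhere in the genome, a list added after seeing the data, gave 0.079 and 0.33 on the mepenzolate arrays of 25 h, -0.17 and -0.016 on those of 7 h, -0.018 and 0.086 with vehicle at 25 h and -0.27 and -0.097 at 7 h. The order of the arrays was much the same for RNAs with no member as host. The part of these RNAs in the ribosomal values was not tested.

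Lymphocytes and growing cells are rich in these mRNAs, and their markers are given beside them. T cell markers had 9 of 10 genes above 0 between mepenzolate and vehicle at 25 h, with a median of 0.25. Their median deviations were 0.22 and 0.30 on the mepenzolate arrays of 25 h, -0.061 and 0.045 on the vehicle arrays, -0.18 and -0.14 with mepenzolate at 7 h and -0.038 and -0.12 with vehicle. Cd3g, part of the T cell receptor signalling unit, differed by 0.57 ± 0.10 at 25 h. B cell markers had 6 of 9 above 0 (median 0.12), with 0.18 and 0.36 on the mepenzolate arrays of 25 h, -0.14 and 0.56 with vehicle, -0.32 and -0.28 with mepenzolate at 7 h and -0.049 and -0.39 with vehicle. Between 25 h and 7 h in mepenzolate lungs, 10 of 10 T cell markers and 9 of 9 B cell markers were above 0, with medians of 0.40 and 0.62, and 0 of either list were called. At an unadjusted p under 0.05 by limma, 9 of these T cell and 8 of these B cell markers were higher, against 3.28% of all genes. Some other lists read the same way: 8 of 8 platelet markers (median 0.44), 11 of 11 ciliated cell markers (0.24) and 9 of 10 club cell markers (0.32) were above 0. Others read the other way. Above 0 were only 1 of 8 alveolar type 2 markers (median -0.050) and 2 of 10 endothelial markers (-0.092). The same held for 2 of 7 alveolar type 1 markers (-0.059) and 1 of 5 liver markers (-0.31). On the mepenzolate arrays of 7 h, the median deviations were 0.081 and -0.36 for ciliated cells and -0.13 and -0.53 for club cells. They were -0.22 and -0.49 for platelets and -0.19 and 0.59 for liver. The ciliated and liver shifts thus leaned on the second of these arrays. Proliferation markers had 1 of 9 genes above 0 between treatments at 25 h (median -0.11). They had 9 of 9 above 0 with time in vehicle lungs (0.36) and 8 of 9 in mepenzolate lungs (0.092). In vehicle lungs 7 of them were higher at an unadjusted p under 0.05 by limma, against 2.71% of all genes. In mepenzolate lungs 0 were, against 3.28% of all genes. Their highest median was on the first vehicle array of 25 h (0.26), with 0.13 on the second mepenzolate array of that time. In vehicle lungs all 9 B cell markers were above 0 as well (median 0.41). The ribosomal genes were high on the second mepenzolate array of 25 h. T cell markers were high on both arrays of that group (0.22 and 0.30). B cell markers were also higher on the second of them (0.18 and 0.36), but highest on the second vehicle array of 25 h. Apart from the T and B cell lists, the 13 marker lists had medians at 25 h from -0.21 (neutrophils, 2 of 8 genes above 0) to 0.41 (mesothelium, 5 of 6), and 0 of their genes were called in any comparison. The part of these cell types in the ribosomal values was not tested.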

How the data were processed

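The deposited values were log2 expression levels of 34760 probe sets on 8 Affymetrix mouse arrays, made with RMA per the submitters' processing notes (the sources used here name no version). This method equalises intensity distributions between arrays. Array medians were 6.70 to 6.77. The number of arrays limits the precision. Probe sets with 1 symbol in the platform annotation (21640) were named, 1321 with several and 11799 unnamed ones were not. The brightest per gene was kept. Genes in the lowest 25 percent by mean (under log2 5.93) were left out, and the other 14953 were modelled in limma 3.58.1 (R 4.3.3, with values read by the package data.table, version 1.17.8), with 1 mean per group, 4 residual and 4.09 prior degrees of freedom, and Benjamini-Hochberg adjustment over all of them at 0.05.

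The members, lists, comparisons and rule for named genes were chosen with earlier results of these data known. Named were, in each comparison, up to 6 members with the largest moderated t in either direction, members with the largest replicate spread, members named for their role, and the leading genes of each list. Others named in the text were chosen after their values were seen. Lists are described by counts and medians, with no test. Further marker lists were computed, and only some of their counts and medians are printed. The RefSeq gene table gives no strand, so that of small nucleolar RNAs was not checked. Alternatives changed the filter (none or stricter), the normalization (quantile or median centring), the spread model (robust with an intensity trend, array weights), the probe sets (mean per gene) and the design (a replicate block, the compared groups only, each array left out). Replicate numbers were not taken to pair the arrays, since not every correlation of the differences between replicates 1 and 2 was over 0.1. The 3 with vehicle at 25 h were -0.021 to 0.027 and the other 3 were 0.19 to 0.40. Simulated data were made for mepenzolate against vehicle at 25 h with 14953 genes, and limma recovered 70% of 50 genes changed by log2 0.5 and 100% of those changed by 1, 2 or 3, and 12 of 197 calls were unchanged genes. The simulated noise was independent between genes, with no shift shared by the genes of an array. In all 200 genes were changed at once, which eases the adjusted threshold. These shares therefore do not give the power of the real comparison.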

Additional observations from a re-analysis of the deposited data

How the results depend on the processing

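No ribosomal protein gene was called in any of the 6 comparisons under any alternative run. Counts of called genes over the whole array did move. At 25 h between treatments it was 1 with the replicate block, with 0 to 1 over the arrays left out in turn. Leaving out arrays gave 0 to 2 at 7 h, averaged over both times and for the difference between times. For 25 h against 7 h in vehicle lungs (13 genes) it was 7 with quantile normalization, 33 with an intensity trend, 55 with array weights and 0 to 14 with an array left out. In mepenzolate lungs (4 genes) it was 1 without the filter, 0 with quantile normalization, 0 with array weights, 9 with the replicate block, 1 with the compared groups only and 0 to 2 with an array left out.

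With arrays left out in turn, the large subunit median at 25 h ran from 0.027 to 0.21 and the small from 0.048 to 0.20. Large minus small ran from -0.021 to 0.027 there, and was 0.0043 with the mean of a gene's probe sets and 0.0059 with means over members. At 7 h it was 0.016 with the mean of probe sets. Averaged over times it ran from -0.010 to 0.024. For the difference between times, the large subunit ran from 0.018 to 0.15, the small from -0.012 to 0.18 and large minus small from -0.046 to 0.039. The contrast of 25 h with 7 h kept its sign, at -0.089 to -0.048 in vehicle lungs and -0.083 to -0.034 in mepenzolate lungs, where it was -0.072 with means over members. The subunit medians in mepenzolate lungs ran from 0.024 to 0.23 (large) and from 0.082 to 0.31 (small).

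Differences of single genes near 0 changed sign. At 25 h this held with median centring for Rps2 (0.017) and Rps15 (0.0073), with the mean of probe sets for Rps2 (0.099), Rps15 (0.025), Rpl13 (0.15), Rps18 (0.17), Rplp0 (-0.0025) and Rpl10 (-0.0058), and with quantile normalization for Rpsa (-0.0052), Rpl10 (-0.0029) and Rps6 (-0.013). With the mean of probe sets it also held for Rps13 in vehicle lungs over time (0.0028) and Rps18 in mepenzolate lungs (0.15). Over arrays left out, the 25 h difference ran from -0.057 to 0.036 for Rps2, -0.14 to 0.10 for Rps15, -0.19 to 0.13 for Rpl26, -0.14 to 0.040 for Rpl12, -0.27 to 0.11 for Rpl13, -0.11 to 0.12 for Rplp1, -0.059 to 0.44 for Rplp2, -0.00093 to 0.035 for Rpl10, -0.11 to 0.16 for Rps3, -0.083 to 0.31 for Rps4x, -0.032 to 0.48 for Rps12 and -0.052 to 0.43 for Rps20. At 7 h it ran from -0.051 to 0.38 for Rps28, -0.16 to 0.0051 for Rpl26 and -0.31 to 0.013 for Rps14. Over time it ran from -0.30 to 0.065 for Rpl5 in vehicle lungs and from -0.013 to 0.0040 for Rps18 in mepenzolate lungs. The causes were not tested. A fit on the compared groups only was not run for the average over times and the difference between times, which use all groups. With 2 arrays per group, signal over background and array number limit what can be told apart.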
